A study of Mus musculus with 27 samples.

Results

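The cells described here are vector 3T3-L1 cells after 2 h in the differentiation mixture, set against the same cells at 0 h and measured across all genes. The members were chosen by their labels: the 3 arrays of vector cells at 2 h and the 3 of vector cells at 0 h, which makes 6 of the 27 arrays of the series. 3T3-L1 is a mouse fibroblast line that can turn into fat cells, and the study followed the first hours and days of that change and the part played in it by the transcription factor ISL1. All 6 arrays hold total RNA of cells that carry the pMIG vector, so the 0 h cells carry it too. The cells were grown in DMEM with 10% newborn or fetal calf serum, glutamine, penicillin and streptomycin at 10% CO2, and induced 2 days after they reached confluence. The 0 h cells were collected just before that. The 2 h cells had spent 2 h in medium with 10% fetal calf serum, 350 nM insulin, 0.5 mM isobutylmethylxanthine (IBMX), 250 nM dexamethasone and 400 nM biotin. The other 21 arrays are vector cells at 0.5, 1, 4, 8 and 48 h and cells with Flag-ISL1 at 0 and 48 h. They enter here only through the shared estimate of the spread and, for 0.5 to 8 h, as the times around 2 h. All arrays come from 1 line, and no cells given fresh medium without the added agents were analysed here, so the serum, the change of medium and each agent cannot be told apart.

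Insulin acts through its own receptor and that of IGF1, and through the substrate proteins of those receptors. Dexamethasone binds the glucocorticoid receptor, a nuclear receptor that moves to DNA within minutes, and IBMX blocks phosphodiesterases, so that cAMP and the kinase it controls stay active. Together with serum they switch on immediate early genes, which need no new protein, then C/EBP beta and C/EBP delta, which precede PPAR gamma and C/EBP alpha, the regulators of the fat cell programme. Confluent 3T3-L1 cells stand still before induction and divide again about a day after it.

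Levels are RMA values on the log2 scale, so a difference of 1 is a 2-fold change, and differences are given as 2 h minus 0 h with the standard error of the fit. Arrays of the same group correlated across genes at 0.996 to 0.998 and arrays of 0 h with those of 2 h at 0.979 to 0.983. The median SD of a gene over the 3 arrays of a group was 0.081 at 0 h and 0.091 at 2 h. The triplicates are described as biological, with no word on how the cultures were kept apart, so the p-values measure the spread between these arrays. The labels of the vector arrays of all times after 0 h carry a sample code that those of 0 h lack, and nothing says whether both sets were run together, so such a difference and time in the mixture cannot be told apart. Between 0 h and 0.5 h, which differ in that code too, 255 genes (1.28%) passed the test. The label of the cells was set against marker lists. Of 19 preadipocyte identity genes 2 rose and 3 fell (10.5% and 15.8%, where 10.9% and 17.5% of all genes did), and quantile normalization repeated gave 1 and 8. Their mean level was 11.65 to 11.69 over the 0 h arrays and 11.56 to 11.59 over the 2 h arrays. Dlk1, the classic preadipocyte surface protein, read 14.31, 14.30 and 14.31 at 0 h and 14.31, 14.25 and 14.31 at 2 h and did not pass the test, at a level close to the highest of the table (14.85), where a change would be hard to see. Of the 10 epithelial and the 10 muscle markers 0 passed the test, and up to 2 and 1 did under other scalings. Of 11 macrophage and blood cell markers 2 rose, Cd14 by 0.54 ± 0.083 and Cd68 by 0.28 ± 0.08, and the mean level of that list was 7.61 to 7.66 at 0 h and 7.63 to 7.78 at 2 h. Ptprc, the pan-leukocyte surface protein, read 6.31, 6.29 and 6.32 at 0 h and 6.30, 6.28 and 6.06 at 2 h and did not pass. Of 10 endothelial markers 1, Cdh5, rose (by 0.24 ± 0.083, a call lost without any of 5 of the 6 arrays, limma adjusted p 0.0526 to 0.131), and the mean of the list was 7.25 to 7.29 at 0 h and 7.30 to 7.45 at 2 h. The part of such cells in the results was not tested. In a bulk sample fewer cells of a type and less RNA per cell cannot be told apart.

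After 2 h, 5649 of 19938 genes (28.3%) differed from 0 h at a Benjamini-Hochberg adjusted p under 0.05 in limma, the linear model used throughout. Of these, 2167 (10.9% of the genes tested) were higher and 3482 (17.5%) lower. The sizes ran the other way. At least a 2-fold change was reached by 377 higher genes (1.89%) and 238 lower genes (1.19%). Above 4-fold there were 93 higher and 9 lower genes, and above 8-fold 26 higher and 0 lower. Most changes were small: 3889 of the called genes (68.8%) stayed under 1.5-fold, and the median size of a called difference was 0.43. Over all genes the median difference was 0.002, with quartiles at -0.136 and 0.109. How the calls split between higher and lower depended on the scaling. Higher genes made up 38.4% as deposited, 48.6% when each array was centred on its median (2436 higher, 2575 lower) and 59.0% when it was centred on the median of the genes tested (3537 higher, 2460 lower), a setting chosen after seeing the data. Among genes past 2-fold the share of higher genes was 61.3% as deposited and 66.4% and 71.8% under the same 2 settings. The 3 arrays of one group lay beyond the 3 of the other in 7986 genes (40.1%), and 5540 of these also passed the test. The arrays of 2 h were not extreme equally often: in 56.7% of the 3482 lower genes the array of replicate 2 was the lowest of the 3, against 30.8% for replicate 1 and 12.5% for replicate 3, while in 47.2% of the 2167 higher genes replicate 3 was the highest, against 26.3% and 26.5%. Without replicate 2 at 2 h, 1988 genes were higher and 2947 lower, with 399 and 206 past 2-fold, and without replicate 3 the genes past 2-fold were 369 higher and 284 lower.

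**Figure D1:**
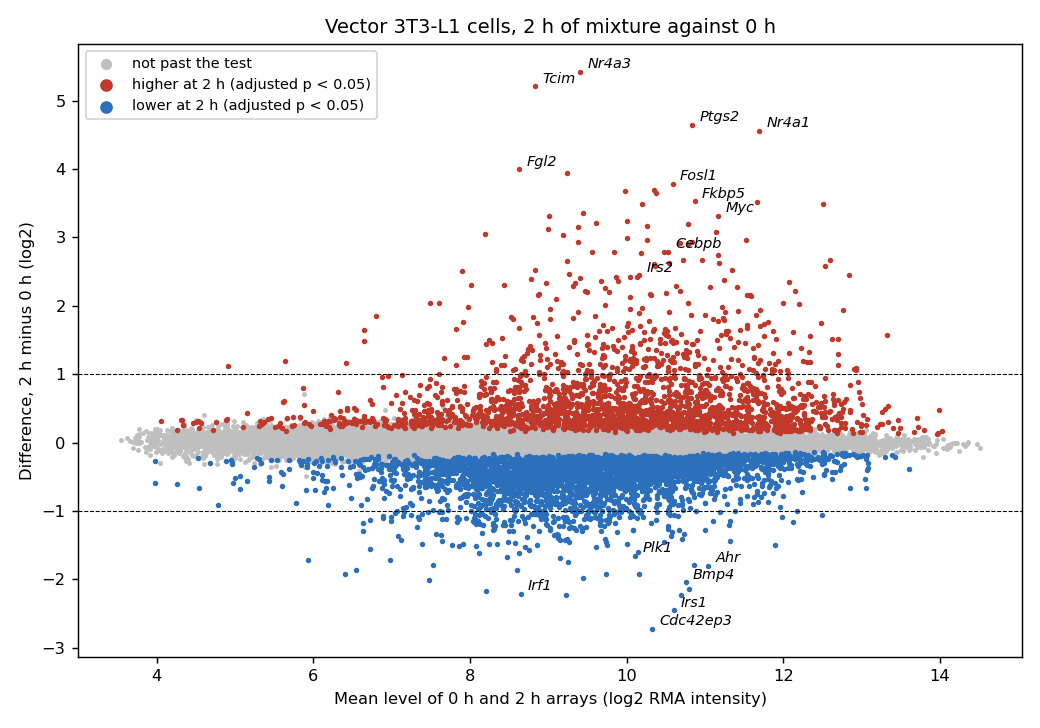
Difference between 2 h and 0 h (log2, vertical) against the mean level of both groups (log2 RMA intensity, horizontal) for the 19938 genes, each a point, with red and blue for genes past the test and dashed lines at a 2-fold change. Rises reach 5.42 (Nr4a3) while the largest fall is -2.72 (Cdc42ep3), and most blue points lie within the dashed lines.

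Every gene said below to have risen or fallen passed the test over all genes, and those chosen by rule had adjusted p of at most 0.0482 (limma). For 272 of those 274 genes the 3 arrays of one time lay beyond the 3 of the other, the 2 exceptions being Nog and Vipr1. The same held for 5540 of all 5649 genes past the test. It was also required of the largest rises and falls, so the count of 272 adds no separate evidence.

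The largest rise was in Nr4a3, an orphan nuclear receptor of the immediate early class. It read 6.64, 6.81 and 6.64 at 0 h and 12.14, 12.05 and 12.15 at 2 h, a 42.8-fold difference (5.42 ± 0.116 on the log2 scale, limma adjusted p = 4.09e-22), and all 2 h arrays were high. Its relative Nr4a1 read 9.41, 9.55 and 9.29 at 0 h and 13.99, 14.01 and 13.92 at 2 h and rose by 4.56 ± 0.064, and Nr4a2 rose by 2.66 ± 0.088. The zinc finger factors Egr1 and Egr2, also immediate early, rose by 2.15 ± 0.081 and 3.36 ± 0.113. Egr2, which has been placed upstream of C/EBP beta in fat cell formation, read 7.78, 7.65 and 7.84 at 0 h and 11.14, 10.95 and 11.28 at 2 h. Of the 9 Nr4a and Egr factors and their partners measured, 6 rose and 0 fell, with a median of 2.15. The rises were 66.7% of the list, where 10.9% of all genes rose. The course of these factors around 2 h was not the same. Nr4a3 stood 4.83 above 0 h at 1 h and 3.38 at 4 h, so its highest measured level was at 2 h, whereas Egr1 went from 3.27 at 1 h to 1.51 at 4 h and -0.30 at 8 h.

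Of the 15 members of the AP-1 family, the dimeric factors of Fos, Jun, ATF and small Maf proteins, 11 rose and 0 fell (median 1.45). The rises were 73.3% of the family, where 10.9% of all genes rose. The member that led them was Fosl1 (Fra-1), which read 8.75, 8.94 and 8.41 at 0 h and 12.55, 12.43 and 12.45 at 2 h and rose by 3.78 ± 0.092. It was followed by the small Maf gene Maff, which read 7.71, 7.43 and 7.17 at 0 h and 10.57, 10.43 and 10.66 at 2 h and rose by 3.12 ± 0.139. Junb rose by 1.96 ± 0.087, Fosl2 by 1.93 ± 0.075 and Fosb by 1.83 ± 0.096. Fos itself read 7.77, 7.71 and 7.47 at 0 h and 9.58, 9.53 and 9.25 at 2 h, a rise of 1.81 ± 0.103 that compares with 4.09 at 1 h and 1.27 at 4 h. The family thus held members on their way down (Fosb, 3.85 at 1 h and 0.13 at 4 h) beside Fosl1, which was at 1.68 at 1 h and 4.28 at 4 h. Against 1 h Fos fell by 2.29 ± 0.103, and Fosl1 stood 2.09 ± 0.092 higher.

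Of the 26 other immediate early genes 24 rose and 0 fell, with a median of 1.49 and 16 past 2-fold, where 10.9% of all genes rose. Myc, the growth-promoting transcription factor, read 9.59, 9.64 and 9.30 at 0 h and 12.82, 12.85 and 12.81 at 2 h and rose by 3.32 ± 0.079. Ier3, an early response gene linked to cell survival, read 7.46, 7.17 and 7.44 at 0 h and 10.62, 10.71 and 10.67 at 2 h and rose by 3.31 ± 0.078. The stress response gene Gadd45g rose by 2.96 ± 0.094, the nuclear protein gene Csrnp1 by 2.78 ± 0.114 and the small GTPase gene Rhob by 2.75 ± 0.086. Rhob read 9.76, 9.86 and 9.76 at 0 h and 12.55, 12.54 and 12.54 at 2 h.

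**Figure D2:**
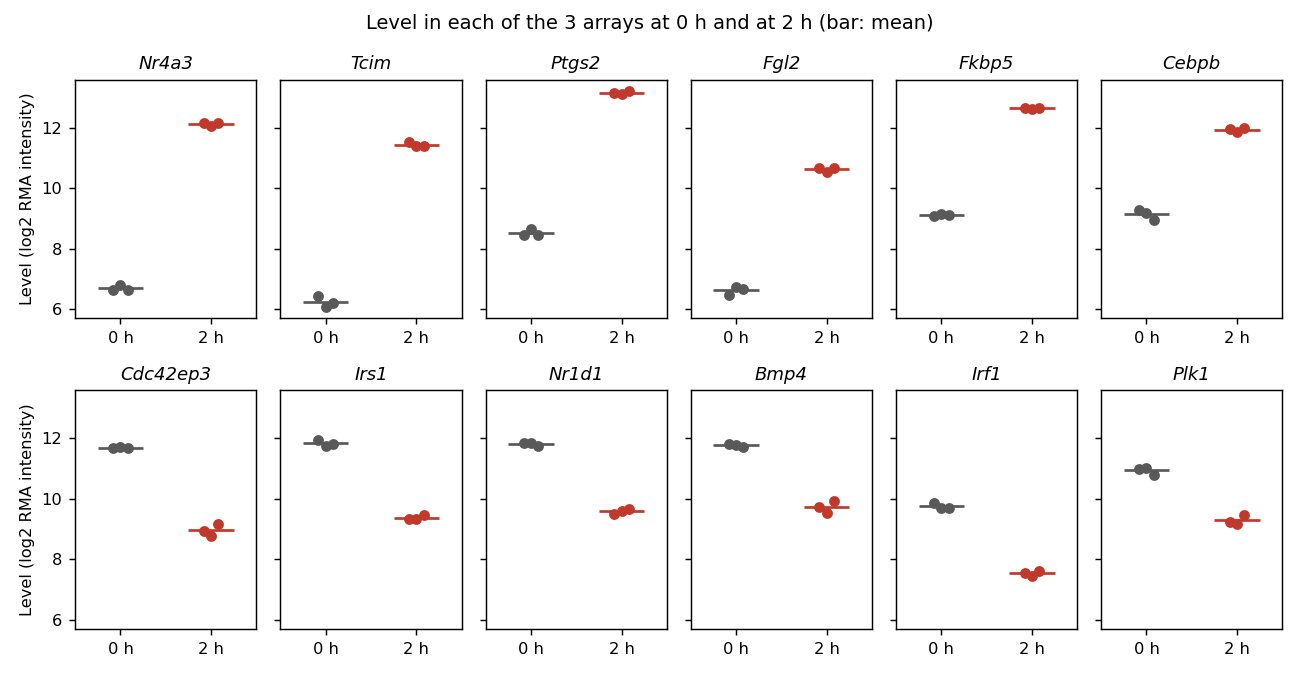
Level (log2 RMA intensity) of 12 genes in each of the 3 arrays at 0 h (grey) and at 2 h (red), with a bar at the mean of the group. In the upper row all 2 h points lie above the 0 h points, as for Tcim at 11.38 to 11.51 against 6.06 to 6.43, and in the lower row all lie below.

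Promoters of immediate early genes often carry a serum response element, bound by the serum response factor, or a cAMP response element (CRE), bound by CREB. The bases before the start of 2 such genes are shown because these are the largest rises in their lists with such a match, taken from RefSeq in the GRCm38.p6 build, 5′ to 3′ on the gene's strand, with the match in capitals. The Egr2 sequence is chr10:67537316-67537565 (plus strand) and its match is a serum response element that begins 72 bases before the start. The Maff sequence is chr15:79347270-79347519 (plus strand) and its match is a CRE 29 bases before the start.
Egr2: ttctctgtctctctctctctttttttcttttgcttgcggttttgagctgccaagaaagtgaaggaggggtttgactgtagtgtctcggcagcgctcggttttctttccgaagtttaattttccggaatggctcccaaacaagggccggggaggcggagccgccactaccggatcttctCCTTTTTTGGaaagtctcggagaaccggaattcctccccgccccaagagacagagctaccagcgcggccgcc
Maff: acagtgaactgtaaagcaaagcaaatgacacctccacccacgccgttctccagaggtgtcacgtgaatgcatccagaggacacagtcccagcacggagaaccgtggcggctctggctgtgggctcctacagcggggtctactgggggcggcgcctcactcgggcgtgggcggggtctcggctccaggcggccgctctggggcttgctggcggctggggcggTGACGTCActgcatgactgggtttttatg

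A motif was looked for on both strands of windows from 250 bases before to 50 after each start, 300 bases in all. The background is the 19177 windows of the 15614 genes tested that had a window. Shares are of windows and not of genes, so a gene with several starts counts more than once. A serum response element (2 C, 6 bases of A or T, 2 G) was in 1.41% of these, in 3.82% of the 393 windows of genes at least 2-fold higher and in 1.26% of the 239 windows of genes at least 2-fold lower. The CRE (TGACGTCA) was in 2.37% of the background, in 3.56% of those of the higher and 4.18% of those of the lower genes. A full glucocorticoid element was in 2 windows of the background, 1 of them of a higher gene, too few to compare. Its single arm AGAACA, which the full element also holds, was in 15.5% of the background, 10.2% of higher and 12.1% of lower windows. The AP-1 site (TGANTCA) was in 6.9%, 7.12% and 5.86% in the same order. Windows were present for 289 of the 377 higher and 190 of the 238 lower genes. A match is a run of letters and not a measured binding site.

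Negative feedback on MAP kinases rose with the early genes: of 19 members 11 rose and 2 fell (57.9% and 10.5%, median 0.44). Of all genes 10.9% rose and 17.5% fell. Dusp1, a phosphatase that switches off p38 and JNK and is also a glucocorticoid target, read 10.90, 10.82 and 10.58 at 0 h and 14.29, 14.25 and 14.24 at 2 h and rose by 3.49 ± 0.074. The ERK phosphatase genes Dusp6 and Dusp5 rose by 2.99 ± 0.092 and 2.29 ± 0.062. Spry4, an inhibitor of receptor tyrosine kinase signalling, rose by 1.96 ± 0.101, and Errfi1, an inhibitor of the EGF receptor, by 1.94 ± 0.058. Spred3 fell by 0.36 ± 0.064 and was the larger of the 2 falls. Factors that destroy short-lived mRNAs were also mostly higher, with 9 of 15 up and 3 down (60% and 20%). The share that fell was near that of all genes. Under median centring 9 rose and 1 fell, and quantile normalized again 9 and 4. Zfp36 (tristetraprolin), which binds AU-rich elements, read 8.59, 8.36 and 8.38 at 0 h and 11.31, 11.19 and 11.18 at 2 h and rose by 2.78 ± 0.082. The endonuclease gene Zc3h12a rose by 1.14 ± 0.089 and its relative Zc3h12c by 1.20 ± 0.093, and the deadenylase gene Cnot6 rose by 0.54 ± 0.071.

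Of 37 cAMP pathway genes 12 rose and 7 fell (32.4% and 18.9%, where 10.9% and 17.5% of all genes did), with a median of 0.04. The share that fell was near that of all genes, and under median centring 5 fell. Rgs2, which speeds the shut-off of G proteins, read 9.94, 9.90 and 9.88 at 0 h and 13.42, 13.44 and 13.44 at 2 h and rose by 3.52 ± 0.059 (limma adjusted p = 4.35e-24). The salt-inducible kinase genes Sik1 and Sik2, whose products restrain CREB coactivators, rose by 1.51 ± 0.057 and 1.16 ± 0.059. Among the phosphodiesterase genes Pde4d read 10.52, 10.40 and 10.29 at 0 h and 11.94, 11.88 and 11.91 at 2 h and rose by 1.5 ± 0.07, and Pde4b read 10.23, 9.74 and 9.66 at 0 h and 11.16, 11.10 and 11.21 at 2 h and rose by 1.28 ± 0.095, while Pde4a fell by 0.42 ± 0.071. At 1 h Pde4d had stood at 0.47 and Pde4b at 0.52, so both enzymes' genes climbed mainly between 1 and 2 h. Crem, which encodes CREB-like activators and the inducible repressor ICER, rose by 0.95 ± 0.095. The coactivator gene Ppargc1a, a cAMP target in other tissues, fell by 0.47 ± 0.103.

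Of 32 genes of the glucocorticoid receptor and its known targets 19 rose and 4 fell, 18 of the rises past 2-fold, with a median of 1.26 against 0.002 over all genes. The shares were 59.4% and 12.5%, where 10.9% of all genes rose and 17.5% fell. Fkbp5, a co-chaperone that holds the receptor back, read 9.07, 9.13 and 9.11 at 0 h and 12.65, 12.61 and 12.64 at 2 h and rose by 3.53 ± 0.068. It had been at -0.01 at 0.5 h and 1.57 at 1 h. The secreted lipocalin gene Lcn2 rose by 2.94 ± 0.094 and the glutamine synthetase gene Glul by 2.63 ± 0.067. Tsc22d3 (GILZ) rose by 1.30 ± 0.092, and Zbtb16 (PLZF) read 7.54, 7.83 and 8.00 at 0 h and 10.04, 9.88 and 9.97 at 2 h and rose by 2.17 ± 0.092, against 0.22 at 1 h. Sgk1, a kinase gene, rose by 1.09 ± 0.061, less than at 1 h (1.54). The receptor gene Nr3c1 itself read 10.94, 11.02 and 11.11 at 0 h and 10.49, 10.41 and 10.55 at 2 h and fell by 0.54 ± 0.091. Angptl4, an inhibitor of lipoprotein lipase and a known target of the receptor in fat, went against the list: it read 9.94, 9.94 and 9.97 at 0 h and 8.42, 8.64 and 8.54 at 2 h and fell by 1.41 ± 0.091. Bcl6 also fell, by 0.57 ± 0.085.

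Metallothioneins are small metal-binding proteins whose genes respond to glucocorticoid and zinc, and 2 of these genes, Mt1 and Mt2, rose. Mt1 read 11.30, 11.24 and 11.16 at 0 h and 13.82, 13.84 and 13.81 at 2 h and rose by 2.59 ± 0.061, and Mt2 read 11.53, 11.45 and 11.86 at 0 h and 14.11, 14.02 and 14.06 at 2 h and rose by 2.45 ± 0.086. The zinc importer gene Slc39a14 read 9.73, 9.56 and 9.58 at 0 h and 12.32, 12.30 and 12.26 at 2 h and rose by 2.67 ± 0.071, having stood at 0.93 at 1 h. Of the 23 metallothionein and zinc transport genes 5 rose and 5 fell (21.7% each, where 10.9% and 17.5% of all genes did). Under median centring 5 rose and 2 fell. Transporters other than Slc39a14 went both ways. Slc39a13 fell by 0.56 ± 0.072 and Slc39a3 fell by 0.32 ± 0.083.

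The early regulators of fat cell formation split. Cebpb read 9.27, 9.18 and 8.95 at 0 h and 11.95, 11.85 and 11.97 at 2 h and rose 6.91-fold (2.79 ± 0.086), and Cebpd read 8.34, 8.40 and 8.44 at 0 h and 10.59, 10.66 and 10.55 at 2 h and rose 4.62-fold (2.21 ± 0.086). Cebpa read 9.20, 9.10 and 9.06 at 0 h and 8.67, 8.72 and 8.62 at 2 h and fell by 0.45 ± 0.101, and Pparg read 11.86, 11.72 and 11.75 at 0 h and 11.54, 11.48 and 11.51 at 2 h and fell by 0.27 ± 0.06 (limma adjusted p = 0.000989), a difference of 1.2-fold in which the groups still did not overlap. At 4 h Pparg was 0.02 from its 0 h level. Cebpg, a C/EBP without an activation domain, fell by 0.68 ± 0.072, and Ddit3 (CHOP), which blocks other C/EBPs, fell by 0.87 ± 0.084. In all 2 of the 6 C/EBP genes rose and 3 fell (33.3% and 50%, where 10.9% and 17.5% of all genes did). Among PPARs and their partners 4 of 13 rose and 3 fell (30.8% and 23.1%, where 10.9% and 17.5% of all genes did). Ppard rose by 0.71 ± 0.055 and the corepressor gene Nrip1 by 0.90 ± 0.088, while the receptor gene Rxrb fell by 0.61 ± 0.07.

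The Kruppel-like factors were divided as well, 5 up and 6 down of 17 (29.4% and 35.3%, where 10.9% and 17.5% of all genes did so). Klf5, an activator downstream of C/EBP beta and C/EBP delta, read 9.05, 9.16 and 9.44 at 0 h and 12.15, 12.05 and 12.21 at 2 h and rose by 2.92 ± 0.094. Klf4, which acts with Egr2 upstream of Cebpb, rose by 1.23 ± 0.08, less than at 1 h (1.6). Klf9, a glucocorticoid target, rose by 0.79 ± 0.086. Klf7, a repressor of fat cell formation, read 11.34, 11.12 and 11.14 at 0 h and 9.70, 9.68 and 9.88 at 2 h and fell by 1.45 ± 0.09. Klf3, another such repressor, read 11.31, 11.43 and 11.47 at 0 h and 10.07, 9.99 and 10.15 at 2 h and fell by 1.33 ± 0.071. Of the 29 repressors of fat cell formation 12 fell and 7 rose (41.4% and 24.1%, where 17.5% and 10.9% of all genes did). Both shares lay above those of all genes, so the list changed both ways. Under median centring 10 fell and 7 rose. Gata2 fell by 0.82 ± 0.075, whereas the forkhead gene Foxc2 went against the list: it read 9.06, 9.07 and 9.13 at 0 h and 11.94, 11.81 and 11.88 at 2 h and rose by 2.79 ± 0.079.

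**Figure D3:**
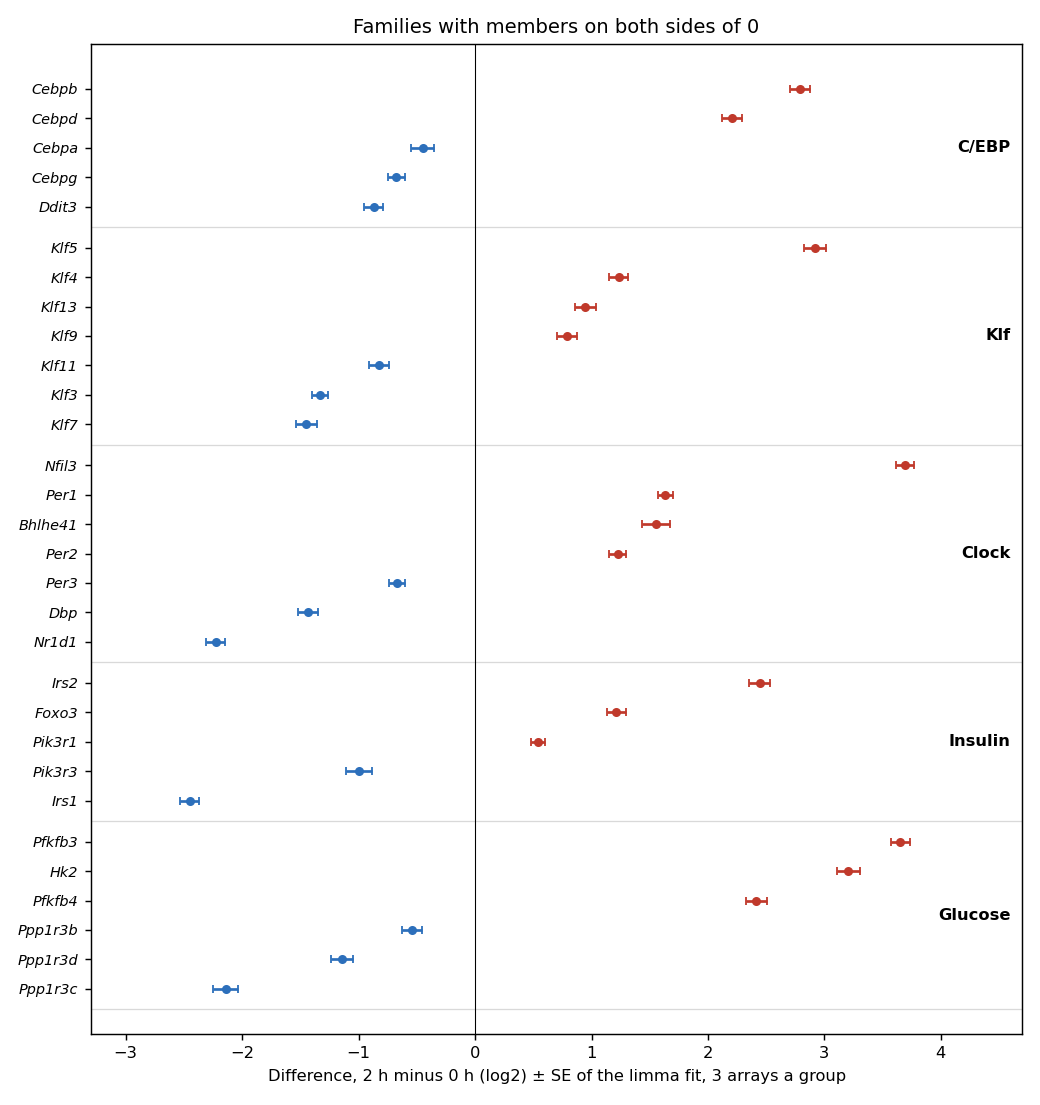
Difference between 2 h and 0 h (log2, with the SE of the fit over 3 arrays a group) of members of 5 families that moved both ways, chosen for display after their values were seen. In each family points lie on both sides of 0, from Irs2 (2.44) to Irs1 (-2.45) in the insulin group.

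Of 30 fat cell markers 7 rose and 5 fell (23.3% and 16.7%, where 10.9% and 17.5% of all genes did), and under median centring 7 and 2. The enzymes that close triglyceride synthesis rose: Dgat1 read 10.85, 10.66 and 10.56 at 0 h and 12.09, 12.23 and 12.14 at 2 h and rose by 1.47 ± 0.085, and Dgat2 rose by 0.60 ± 0.117. Lpin1, the phosphatidate phosphatase of the same route and a glucocorticoid target, rose by 1.21 ± 0.091, and the fatty acid synthase gene Fasn by 0.67 ± 0.079. The lipid droplet coat gene Plin2 fell by 0.67 ± 0.081 and the hormone-sensitive lipase gene Lipe by 0.50 ± 0.084. The adipokine gene Adipoq read 10.94, 10.73 and 10.60 at 0 h and 10.65, 10.51 and 10.66 at 2 h and the fatty acid binding protein gene Fabp4 11.40, 11.42 and 11.32 at 0 h and 11.21, 11.21 and 11.16 at 2 h, and neither passed the test (-0.15 ± 0.113 and -0.19 ± 0.085).

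BMP4, a ligand that commits mesenchymal cells to the fat lineage, is in the study's title together with ISL1. Bmp4 read 11.83, 11.77 and 11.73 at 0 h and 9.73, 9.55 and 9.92 at 2 h, a fall of 4.12-fold. It had been at -0.13 at 1 h and went on to -3.55 at 4 h. Isl1 rose in these vector cells, from 7.37, 7.47 and 7.17 at 0 h to 8.65, 8.64 and 8.49 at 2 h, a 2.39-fold difference, after 0.14 at 1 h and before 0.95 at 4 h. Of 23 BMP ligands and antagonists Bmp4 was the single member that fell (1 of 3 when quantile normalized again), and 6 rose. The shares were 4.35% lower and 26.1% higher, where 17.5% and 10.9% of all genes were. Inhba, the activin A subunit, rose by 0.74 ± 0.069 and its binding protein gene Fst by 0.58 ± 0.067. The BMP antagonist genes Chrd and Nog rose by 0.30 ± 0.063 and 0.27 ± 0.09, and the arrays of Nog overlapped, at 7.89, 7.75 and 7.79 at 0 h and 8.20, 8.20 and 7.84 at 2 h. The call of Nog was lost without replicate 2 or 3 at 0 h or replicate 1 or 2 at 2 h (limma adjusted p 0.0674 to 0.143). Among 24 receptors, Smads and feedback genes 12 rose and 5 fell (50% and 20.8%, where 10.9% and 17.5% of all genes did). The inhibitory Smad7 read 9.13, 8.91 and 8.88 at 0 h and 10.60, 10.64 and 10.72 at 2 h and rose by 1.68 ± 0.068. Id1 and Id3, dimerization inhibitors that BMP signals switch on, rose by 1.73 ± 0.085 and 1.21 ± 0.076, and the decoy receptor gene Bambi by 1.29 ± 0.073. The activin receptor genes went apart, with Acvr1b up by 1.11 ± 0.093 and Acvr2a down: it fell by 0.47 ± 0.075. Smad5, a carrier of the BMP signal, fell by 0.49 ± 0.068.

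On the TGF-beta side 8 of 18 genes rose and 3 fell (44.4% and 16.7%, where 10.9% and 17.5% of all genes did). The receptor gene Tgfbr1 read 10.51, 10.53 and 10.40 at 0 h and 12.12, 12.07 and 12.12 at 2 h and rose by 1.63 ± 0.08, against 0.36 at 1 h and 0.43 at 8 h. The corepressor gene Skil, a feedback target, rose by 1.80 ± 0.105, and Ccn2 (CTGF) by 1.41 ± 0.118. Smad3 rose by 0.96 ± 0.068 while Smad2 fell by 0.38 ± 0.086, and the cell cycle inhibitor gene Cdkn2b fell by 0.89 ± 0.074.

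The 2 main insulin receptor substrate genes moved in opposite directions by nearly the same size. Irs1 read 11.94, 11.76 and 11.80 at 0 h and 9.32, 9.33 and 9.48 at 2 h and fell 5.47-fold (by 2.45 ± 0.085, limma adjusted p = 5.89e-18). Irs2 read 9.21, 8.76 and 8.86 at 0 h and 11.40, 11.33 and 11.42 at 2 h and rose 5.44-fold (2.44 ± 0.09, limma adjusted p = 2.35e-17). Their courses differed: Irs2 was already at 2.28 at 1 h, while Irs1 was at -0.44. Further down the pathway the regulatory PI3-kinase subunit gene Pik3r3 fell by 1.00 ± 0.109 and Pik3r1 rose by 0.54 ± 0.058. Foxo3, a factor that Akt keeps out of the nucleus, rose by 1.21 ± 0.08, and Socs3, a feedback inhibitor, by 0.79 ± 0.074. Of 39 genes of insulin and IGF signalling 8 rose and 8 fell, 41.0% against 28.3% of all genes. The balance turned with the scaling, with 12 higher and 5 lower when centred on the genes tested and 10 and 12 when quantile normalized again.

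Among genes of glucose handling too, single members changed strongly in both directions. Hk2, the hexokinase that binds mitochondria, read 7.98, 8.04 and 7.99 at 0 h and 11.20, 11.19 and 11.24 at 2 h and rose by 3.21 ± 0.097. The bifunctional enzyme gene Pfkfb3, whose product speeds glycolysis through fructose 2,6-bisphosphate, read 8.67, 8.51 and 8.46 at 0 h and 12.14, 12.20 and 12.25 at 2 h and rose by 3.65 ± 0.081, and its relative Pfkfb4 read 8.79, 8.63 and 8.55 at 0 h and 11.01, 11.01 and 11.19 at 2 h and rose by 2.42 ± 0.092. Pdk4, which shuts pyruvate out of the mitochondrion, rose by 1.51 ± 0.064. Of the genes for subunits that target protein phosphatase 1 to glycogen, Ppp1r3c read 11.94, 11.85 and 11.83 at 0 h and 9.79, 9.64 and 9.76 at 2 h and fell by 2.14 ± 0.109, Ppp1r3d fell by 1.14 ± 0.091 and Ppp1r3b fell by 0.54 ± 0.085. The relatives Ppp1r3a, Ppp1r3e, Ppp1r3f and Ppp1r3g, at 0.23 ± 0.115, 0.01 ± 0.105, -0.19 ± 0.091 and 0.17 ± 0.145, did not pass. Of the list of 25, 6 rose and 5 fell (24% and 20%, where 10.9% and 17.5% of all genes did). Centred on the genes tested 9 rose and 4 fell. The lactate carrier gene Slc16a1 (MCT1) read 9.28, 9.18 and 9.12 at 0 h and 12.39, 12.36 and 12.42 at 2 h and rose by 3.20 ± 0.073. Gfpt2, an isoform of the enzyme that opens hexosamine synthesis, read 8.34, 8.04 and 8.06 at 0 h and 11.86, 11.80 and 11.79 at 2 h and rose by 3.67 ± 0.093, having stood at 0.83 at 1 h.

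The largest fall of all genes was in Cdc42ep3, an effector of the GTPase Cdc42 that organizes septins and actin. It read 11.67, 11.72 and 11.67 at 0 h and 8.93, 8.79 and 9.17 at 2 h and fell 6.61-fold. On the log2 scale it fell by 2.72 ± 0.12, with -0.31 at 1 h and -3.35 at 4 h. Its relative Cdc42ep1 read 10.49, 10.33 and 10.31 at 0 h and 8.78, 8.85 and 8.91 at 2 h and fell by 1.53 ± 0.072. Cdc42ep2 read 11.51, 11.34 and 11.38 at 0 h and 9.94, 10.05 and 10.01 at 2 h and fell by 1.41 ± 0.072. The other 2 members measured, Cdc42ep4 (0.02 ± 0.081) and Cdc42ep5 (0.24 ± 0.099), did not pass.

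Several large changes lay outside the pathway lists. Tcim, a small regulator of transcription, read 6.43, 6.06 and 6.19 at 0 h and 11.51, 11.41 and 11.38 at 2 h, a 36.9-fold rise (5.21 ± 0.108). Fgl2, a fibrinogen-like secreted protein, read 6.47, 6.75 and 6.68 at 0 h and 10.66, 10.53 and 10.68 at 2 h and rose by 3.99 ± 0.125, against 1.11 at 1 h and 5.06 at 4 h. Ctla2a, which resembles the propeptide of cathepsins, read 7.39, 7.19 and 7.23 at 0 h and 11.25, 11.09 and 11.30 at 2 h and rose by 3.94 ± 0.142. Itpkc, a kinase of inositol trisphosphate, rose by 3.24 ± 0.085. Among the falls were Ahr, the aryl hydrocarbon receptor, which read 12.06, 11.86 and 11.90 at 0 h and 10.08, 10.09 and 10.26 at 2 h and fell by 1.80 ± 0.076, and the corepressor gene Runx1t1, which read 11.14, 11.10 and 11.12 at 0 h and 9.22, 9.03 and 9.37 at 2 h and fell by 1.92 ± 0.083. Ccng2, an atypical cyclin, fell by 1.92 ± 0.083, and the odd-skipped factor gene Osr2 fell by 1.79 ± 0.084. Dapp1, an adaptor that binds phosphoinositides, fell by 1.97 ± 0.112, and Gper1, a membrane receptor for oestrogen, fell by 1.75 ± 0.073. Ttc30b, a protein of ciliary transport, read 8.45, 8.43 and 8.56 at 0 h and 6.58, 6.18 and 6.63 at 2 h and fell by 2.02 ± 0.188, and the channel family gene Calhm5 fell by 1.86 ± 0.126.

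Of 21 prostaglandin genes 4 rose and 5 fell (19% and 23.8%, where 10.9% and 17.5% of all genes did), and centred on the genes tested 6 and 5. Ptgs2 (COX-2), the inducible enzyme of prostaglandin synthesis, read 8.46, 8.65 and 8.44 at 0 h and 13.15, 13.11 and 13.22 at 2 h, a 25-fold rise (4.64 ± 0.104), after 5.46 at 1 h and before 3.10 at 4 h. Pla2g4a, the phospholipase that frees its substrate, rose by 0.55 ± 0.097. The receptor genes Ptger4, Tbxa2r and Ptgir fell by 1.25 ± 0.087, by 1.24 ± 0.118 and by 0.55 ± 0.085.

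Of 27 cytokine and chemokine genes 11 rose, 8 of them past 2-fold, and 1 fell. The shares were 40.7% and 3.7%, where 10.9% of all genes rose and 17.5% fell. Il6 read 6.63, 6.47 and 6.33 at 0 h and 8.48, 8.20 and 8.87 at 2 h and rose by 2.04 ± 0.176, and had stood at 4.12 at 1 h. Cxcl1, a neutrophil chemokine, rose by 1.57 ± 0.126 and was likewise higher at 1 h (2.21). Other members of the IL-6 family came later: Il11 rose by 1.5 ± 0.093 (0.16 at 1 h) and Clcf1 by 1.45 ± 0.082 (0.19 at 1 h). Lif rose by 1.24 ± 0.131. Among 12 genes of the receptors and signalling of this family 9 rose and 2 fell (75% and 16.7%, the latter near the share of all genes). Il6ra, the ligand-binding receptor chain, was at 9.42 ± 0.144 at 0 h and 11.03 ± 0.057 at 2 h (mean ± SD, n = 3) and rose by 1.61 ± 0.072, and the kinase gene Pim1, a STAT target, rose by 2.12 ± 0.105. Cish, an inhibitor of STAT5 signalling, fell by 0.63 ± 0.086, and the kinase gene Tyk2 fell by 0.43 ± 0.081.

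Among 21 NF-kB subunit and inhibitor genes 8 rose and 6 fell (38.1% and 28.6%, where 10.9% and 17.5% of all genes did). The split moved with the scaling: median centring gave 8 higher and 5 lower, and centring on the genes tested gave 10 and 5. The inhibitor gene Nfkbia read 10.50, 10.29 and 10.28 at 0 h and 12.17, 12.13 and 12.12 at 2 h and rose by 1.79 ± 0.081, and Nfkbiz rose by 1.91 ± 0.101. The subunit gene Rel rose by 1.07 ± 0.116 while Rela fell by 0.50 ± 0.074, and the adaptor gene Traf2 fell by 0.78 ± 0.075. Interferon response genes pointed down: of 29 measured, 12 fell (41.4% of the list, against 17.5% of all genes) and 2 rose, with a median of -0.24. Irf1, the interferon-induced activator, read 9.88, 9.69 and 9.69 at 0 h and 7.56, 7.45 and 7.62 at 2 h and fell by 2.21 ± 0.106. Ifit3, an antiviral protein of the same response, read 10.11, 10.40 and 10.51 at 0 h and 8.12, 7.91 and 8.32 at 2 h and fell by 2.22 ± 0.2, and Ifit3b read 6.66, 6.74 and 6.96 at 0 h and 5.04, 5.01 and 5.17 at 2 h and fell by 1.72 ± 0.193. These 2 are near-identical copies, so their probe sets may share signal and their values are uncertain as separate measurements. Ifit2 fell by 1.05 ± 0.153, Irf9 by 0.90 ± 0.127 and Ddx58 (RIG-I) by 0.81 ± 0.088, while Irf2, which opposes Irf1, rose by 0.65 ± 0.07. Median centring left 11 of the 29 lower.

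Of 20 clock genes 11 rose and 5 fell, so 16 of 20 passed the test against 28.3% of all genes. Nfil3, a repressor that binds D-boxes, read 8.51, 8.52 and 8.5 at 0 h and 12.17, 12.13 and 12.30 at 2 h and rose by 3.69 ± 0.075. Per1, a repressor of the clock and a direct target of both glucocorticoid and cAMP signals, read 10.09, 10.08 and 10.20 at 0 h and 11.74, 11.81 and 11.73 at 2 h and rose by 1.63 ± 0.065, and Per2 rose by 1.22 ± 0.074. Nr1d1 (REV-ERB alpha), the nuclear receptor that represses Arntl, read 11.85, 11.85 and 11.74 at 0 h and 9.51, 9.60 and 9.65 at 2 h and fell by 2.23 ± 0.083. The D-box activators Dbp and Tef fell by 1.43 ± 0.086 and by 0.62 ± 0.066, and Per3 fell by 0.67 ± 0.071. Bhlhe41 (DEC2), a repressor that binds E-boxes, read 8.32, 8.49 and 8.19 at 0 h and 9.96, 9.65 and 10.05 at 2 h and rose by 1.55 ± 0.121, and was back at 0.06 from 0 h at 4 h.

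E-boxes (CACGTG) are the sites of the clock's activators and of Bhlhe41 itself. The sequences before the start of Per1 and Bhlhe41, the largest rises of the clock list with such a match, follow from the same source and in the same form. Per1 lies at chr11:69098699-69098948 (plus strand), with the E-box 166 bases before the start. Bhlhe41 lies at chr6:145865421-145865670 (minus strand), with the E-box 153 bases before the start.
Per1: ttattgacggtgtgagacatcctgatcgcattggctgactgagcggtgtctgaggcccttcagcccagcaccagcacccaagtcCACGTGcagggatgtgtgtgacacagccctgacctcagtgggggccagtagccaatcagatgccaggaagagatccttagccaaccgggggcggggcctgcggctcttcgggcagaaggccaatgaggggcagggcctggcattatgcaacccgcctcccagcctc
Bhlhe41: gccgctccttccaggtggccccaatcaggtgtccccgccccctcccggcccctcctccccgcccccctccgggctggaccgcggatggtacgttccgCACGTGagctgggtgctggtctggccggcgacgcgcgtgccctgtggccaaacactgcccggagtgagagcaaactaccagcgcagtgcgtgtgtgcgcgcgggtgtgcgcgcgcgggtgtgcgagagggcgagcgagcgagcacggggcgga

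The E-box was in 8.24% of the background windows, in 13.7% of those of genes at least 2-fold higher and in 7.53% of those of genes at least 2-fold lower. The D-box (TTATGTAA) was in 0.84%, 0.254% and 0.418% in the same order, the last 2 shares standing for 1 window each.

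Chaperones and redox enzymes were higher in part. Of 26 heat shock genes 13 rose and 3 fell (50% and 11.5%, where 10.9% and 17.5% of all genes did). Under median centring 12 rose and 1 fell, and quantile normalized again 13 and 4. Bag3, a co-chaperone of selective autophagy, read 10.98, 11.13 and 11.02 at 0 h and 13.19, 13.32 and 13.24 at 2 h and rose by 2.21 ± 0.062, and the small heat shock protein gene Hspb1 rose by 1.70 ± 0.093. Hsph1 (HSP110), which recycles Hsp70, rose by 1.45 ± 0.07, and the Hsp70 partners Dnajb4 and Dnajb1 rose by 1.56 ± 0.059 and 0.92 ± 0.104. Of 29 antioxidant and glutathione genes 7 rose and 6 fell (24.1% and 20.7%, where 10.9% and 17.5% of all genes did). Under median centring 7 rose and 3 fell, and quantile normalized again 6 and 8. Gclc, the catalytic subunit of the first enzyme of glutathione synthesis, read 9.65, 9.67 and 9.48 at 0 h and 12.67, 12.69 and 12.67 at 2 h and rose by 3.08 ± 0.074. Srxn1, which repairs peroxiredoxins, rose by 1.78 ± 0.075, and Slc7a11, which brings in cystine, by 0.72 ± 0.136. Txnip, an inhibitor of thioredoxin and of glucose uptake, read 13.02, 12.93 and 13.11 at 0 h and 12.00, 11.89 and 12.02 at 2 h and fell by 1.05 ± 0.061.

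For Srxn1 and Hsph1 the match lay after the start, so 30 bases around it are shown, from the same source. Srxn1 (chr2:152105544-152105573, plus strand) has an antioxidant element, the site of NRF2, 28 bases after the start, and Hsph1 (chr5:149636287-149636316, minus strand) has a heat shock element 36 bases after the start, both read on the opposite strand.
Srxn1: agtgggcaGCTAGGTCAgagtgagacacgc
Hsph1: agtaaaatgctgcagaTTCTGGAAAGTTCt

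The antioxidant element (TGACNNNGC) was in 13.2% of the background windows, 19.6% of those of higher and 13.8% of those of lower genes. The heat shock element was in 0.49% of the background, in 2 windows of higher genes (0.509%) and in 0 of lower genes.

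Among 31 genes of the amino acid and unfolded protein responses 13 rose and 7 fell (41.9% and 22.6%, where 10.9% and 17.5% of all genes did). Ddit4 (REDD1), an inhibitor of mTORC1 that glucocorticoids also induce, read 10.06, 10.12 and 10.00 at 0 h and 12.44, 12.46 and 12.42 at 2 h and rose by 2.38 ± 0.07. The one-carbon enzyme gene Mthfd2 rose by 1.02 ± 0.078 and the arginine carrier gene Slc7a1 by 0.68 ± 0.067. Chac1, which breaks down glutathione and follows CHOP, fell by 0.73 ± 0.113.

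Mitosis genes fell nearly throughout. Of 37 measured, 33 fell and 1 rose (median -0.67), where 17.5% of all genes fell, and under median centring 28 fell. Plk1, the polo-like kinase of mitotic entry, read 10.99, 11.02 and 10.80 at 0 h and 9.24, 9.16 and 9.47 at 2 h and fell by 1.65 ± 0.09 (limma adjusted p = 6.58e-14). Aurka, the centrosome kinase, read 10.00, 10.15 and 9.91 at 0 h and 8.78, 8.71 and 8.90 at 2 h and fell by 1.22 ± 0.083, and Cdc20, which activates the anaphase-promoting complex, read 9.94, 10.21 and 10.02 at 0 h and 8.87, 8.61 and 8.94 at 2 h and fell by 1.25 ± 0.093. The cyclin F gene Ccnf fell by 1.39 ± 0.114 and the microtubule depolymerase gene Kif2c by 1.34 ± 0.113. Kif4 went the other way and rose by 0.50 ± 0.142, a call lost without replicate 3 at 0 h (limma adjusted p = 0.0665). These cells were 2 days past confluence, and levels at 0 h are those of such a culture. Of 35 DNA replication genes 17 fell and 4 rose (48.6% and 11.4%, where 17.5% and 10.9% of all genes did). Under median centring 13 fell. The helicase cofactor gene Gins3 fell by 1.05 ± 0.11 and the clamp loader gene Rfc3 by 1.00 ± 0.101, while the ribonucleotide reductase gene Rrm2 rose by 0.75 ± 0.075 and the origin protein gene Orc2 by 0.76 ± 0.114. In the list of 29 G1 genes 11 fell and 4 rose (37.9% and 13.8%, where 17.5% and 10.9% of all genes did). Under median centring 8 fell and 5 rose. Besides Myc, Cdk6 rose by 0.50 ± 0.074. The inhibitor gene Cdkn2c fell by 0.63 ± 0.077, the Myc antagonist gene Mxd4 by 0.54 ± 0.065 and the cyclin E gene Ccne1 by 0.52 ± 0.067.

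The level at 2 h was also set against both neighbouring times, 1 h and 4 h, in the same fit. Against 1 h, 4133 genes (20.7%) differed, and 4 h differed from 2 h in 5579 (28.0%). Where the level at 2 h lay on the same side of both times, the larger of the 2 limma p-values was taken. Other genes could not be called. These p-values were adjusted over all genes and called under 0.05. Genes that passed each difference alone, such as Isl1, could thus still miss this call. By this rule 126 genes (0.632%) stood above both times and 211 (1.06%) below both. These counts depended on single arrays of 2 h: without replicate 1 they were 82 and 135, without replicate 2 the second was 120, and without replicate 3 the first was 82. Leaving out an array of 1 h or 4 h, an alternative chosen after seeing the data, gave 87 to 116 above and 147 to 294 below. The gene with the widest margin above was Pfkfb4, at 9.05 ± 0.078 at 1 h, 11.07 ± 0.105 at 2 h and 9.72 ± 0.143 at 4 h (mean ± SD, n = 3). Its relative Pfkfb3 stood 0.89 ± 0.081 above 1 h and fell by 1.05 ± 0.081 to 4 h. Usp2, a deubiquitinase gene that follows the clock, went from 10.35 ± 0.082 to 11.56 ± 0.053 and back to 10.13 ± 0.074, and Bhlhe41 from 8.63 ± 0.206 to 9.89 ± 0.21 and 8.40 ± 0.132. Aff1, a scaffold of transcription elongation, rose by 1.71 ± 0.067 from 0 h, and Med13, a subunit of the Mediator kinase module, by 1.20 ± 0.063. The homeodomain gene Dlx1 rose by 1.49 ± 0.094, and Zswim6, St7 and Rasgef1b completed the 10 widest margins with 1.83 ± 0.066, 1.31 ± 0.088 and 2.04 ± 0.144 against 0 h.

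Below both neighbours the 10 widest margins held 5 genes of mitotic spindle and chromosome segregation besides Plk1, Aurka and Cdc20. Kif18b, a kinesin that trims astral microtubules, was at 9.78 ± 0.159 at 1 h, 8.49 ± 0.085 at 2 h and 9.50 ± 0.228 at 4 h. Ska3 of the kinetochore fell by 1.10 ± 0.153 from 0 h, Sgo1, which protects cohesin, by 1.35 ± 0.13, and Fam83d, a spindle protein, by 1.11 ± 0.094. The cohesin acetyltransferase gene Esco2 fell by 0.77 ± 0.117. Rad1, of the DNA damage checkpoint clamp, fell by 1.28 ± 0.149 with one 2 h array, replicate 2, well under the others at 7.80, 7.29 and 7.88. Zc3hav1l completed the list with a fall of 1.45 ± 0.085. In the mitosis list 8 of 37 members lay below both times (21.6%, against 1.06% of all genes). Plk1 went from 10.69 ± 0.049 at 1 h to 9.29 ± 0.163 at 2 h and 10.24 ± 0.172 at 4 h, and Aurka from 9.77 ± 0.114 to 8.80 ± 0.095 and 9.96 ± 0.129.

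**Figure D4:**
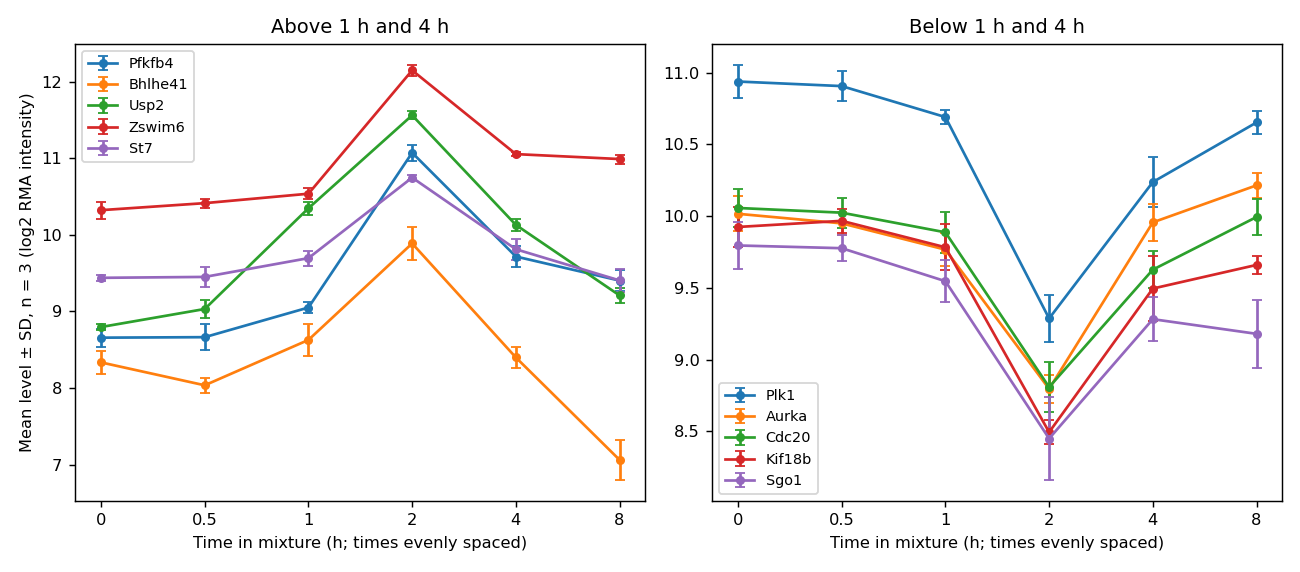
Mean level (log2 RMA intensity, with SD of 3 arrays as bars) of 5 genes above and 5 genes below both neighbouring times, at 0 to 8 h in the mixture, with the times spaced evenly. Of the 6 times shown, 2 h has the highest mean of each gene on the left, Pfkfb4 at 11.07, and the lowest of each on the right, Plk1 at 9.29.

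Ribosome biogenesis genes were in the middle of their rise. Of 30 measured, 20 were higher at 2 h than at 0 h and 0 were lower (median 0.52), whereas the list median was -0.01 at 1 h and 1.49 at 4 h. The higher genes were 66.7% of the list, where 10.9% of all genes were higher. All 30 were higher at 4 h than at 2 h, where 13.7% of all genes were. Nop56, of the box C/D particles that methylate ribosomal RNA, read 11.82, 11.82 and 11.63 at 0 h and 12.92, 12.99 and 12.89 at 2 h and rose by 1.18 ± 0.062. The ribosome assembly genes Rrp1b and Rrs1 rose by 1.35 ± 0.084 and 1.27 ± 0.183, the helicase gene Ddx21 by 1.16 ± 0.091 and the nucleolar GTPase gene Gnl3 by 1.12 ± 0.087. Of 37 respiratory chain subunits 3 rose and 0 fell, and of 31 proteasome subunits 2 rose and 0 fell. The shares past the test, 8.1% and 6.5%, compare with 28.3% of all genes. Both depended on the scaling. Quantile normalization repeated gave 3 higher and 9 lower respiratory chain genes, and centring on the genes tested gave 10 higher proteasome genes.

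Genes whose symbol is Zfp with a number, mostly zinc finger repressors of the KRAB class and their relatives, fell widely. Of 317 measured, 175 fell and 28 rose (median -0.29), where 17.5% and 10.9% of all genes did, and under median centring 151 fell and 28 rose. Zfp455 read 7.70, 7.89 and 7.90 at 0 h and 6.33, 5.85 and 6.17 at 2 h and fell by 1.71 ± 0.18, Zfp563 by 1.53 ± 0.114, Zfp983 by 1.51 ± 0.149 and Zfp759 by 1.51 ± 0.146. Zfp759 had already reached -1.29 at 1 h. At 4 h 125 of the 317 were higher than at 2 h and 26 lower, where 13.7% and 14.2% of all genes were. The largest rise under this symbol rule was Zfp36, which is the RNA decay factor described above and no repressor of this kind, followed by Zfp330 (1.47 ± 0.118). Members of this family share sequence, and cross-hybridization between their probe sets was not tested.

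Hox genes, the homeobox genes that set position along the body axis, also fell: 19 of 37 were lower and 1 higher, with a median of -0.27 and 0 past 2-fold, and 18 were lower under median centring. The shares were 51.4% and 2.7%, where 17.5% of all genes were lower and 10.9% higher. Hoxc13 read 8.86, 8.87 and 8.70 at 0 h and 7.81, 7.93 and 7.80 at 2 h and fell by 0.96 ± 0.097, Hoxa3 fell by 0.91 ± 0.09, Hoxa2 by 0.90 ± 0.071, Hoxd4 by 0.88 ± 0.084 and Hoxc9 by 0.87 ± 0.08. Hoxa5 was the member that rose, by 0.26 ± 0.089, a call lost without any array but replicate 1 at 0 h (limma adjusted p 0.0566 to 0.0995).

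**Figure D5:**
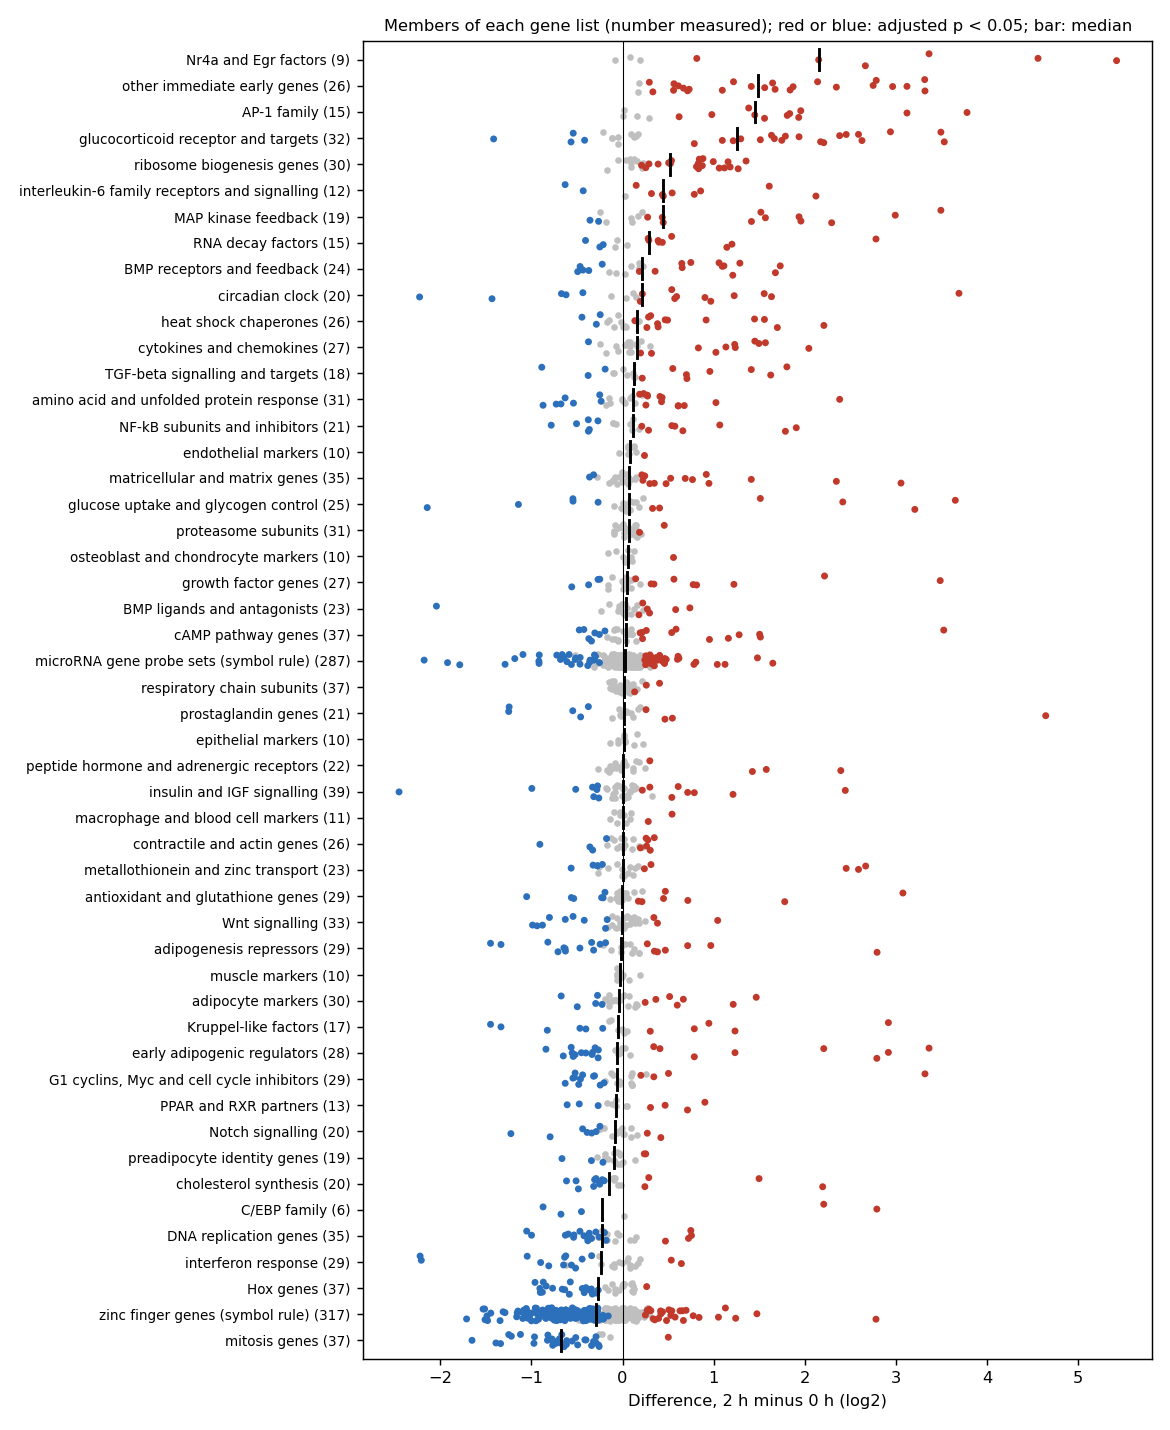
Difference between 2 h and 0 h (log2) of every measured member of 50 gene lists, with the number measured in brackets, red or blue points past the test, grey points not past it, and a bar at the list's median. The lists are ordered by median, from 2.15 for the Nr4a and Egr factors to -0.67 for the mitosis genes, and some points appear in several lists.

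Of 296 probe sets for microRNA genes (let-7 included) 27 rose and 32 fell (9.12% and 10.8%, where 10.9% and 17.5% of all genes did). Past 2-fold 4 rose and 7 fell (1.35% and 2.36%, where 1.89% and 1.19% of all genes did). The arrays were made from total RNA, and a probe set of this kind does not tell the mature microRNA from its longer precursor transcript. The mature 5p or 3p strands that share a seed, or that belong to the largest changes, are shown from RefSeq (GRCm38.p6), with the seed, bases 2 to 8, in capitals.
miR-181b-5p: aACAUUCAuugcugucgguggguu
miR-130a-3p: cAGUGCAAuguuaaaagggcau
miR-301a-3p: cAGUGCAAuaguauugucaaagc
let-7c-5p: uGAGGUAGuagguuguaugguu
miR-99a-5p: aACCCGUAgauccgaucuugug
miR-100-5p: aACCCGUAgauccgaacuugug
miR-18a-5p: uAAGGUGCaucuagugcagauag
miR-29a-3p: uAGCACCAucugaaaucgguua

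The seed AGUGCAA is shared by miR-130a-3p and miR-301a-3p, and the seed ACCCGUA by miR-99a-5p and miR-100-5p. Mir181b-1 had the largest fall of these probe sets and read 9.48, 9.04 and 9.36 at 0 h and 7.26, 6.69 and 7.40 at 2 h (-2.18 ± 0.19). Mir130a read 7.32, 7.43 and 7.36 at 0 h and 5.59, 5.28 and 5.48 at 2 h and fell by 1.92 ± 0.104. It was already at -1.6 at 0.5 h and stood at -1.73 at 1 h, -1.39 at 4 h and -1.6 at 8 h. All times after 0 h differ from 0 h in the sample code too, so that difference and time in the mixture cannot be told apart. Mir301 fell by 1.29 ± 0.127 and was already at -1.29 at 0.5 h, with the same limit, whereas Mir99a was at -0.08 then. Mirlet7c-1 and Mir99a lie close together on chromosome 16. Mirlet7c-1 read 7.51, 7.23 and 7.70 at 0 h and 5.82, 5.36 and 5.68 at 2 h and fell by 1.86 ± 0.19, and Mir99a read 8.63, 8.20 and 8.44 at 0 h and 6.42, 6.79 and 6.71 at 2 h and fell by 1.79 ± 0.135. Mir100, on chromosome 9, fell by 1.09 ± 0.145. Mir199a-1 fell by 1.18 ± 0.084. The rises were Mir18, which read 5.77, 5.93 and 5.77 at 0 h and 7.32, 7.37 and 7.73 at 2 h (1.65 ± 0.2), Mir29a, at 5.81, 6.10 and 5.82 at 0 h and 7.62, 6.89 and 7.67 at 2 h (1.48 ± 0.201), Mir19a (1.12 ± 0.229) and Mir146b (1.04 ± 0.108). Mir18 and Mir19a lie in 1 cluster on chromosome 14, and both were past the test at 2 h after -0.21 and -0.15 at 1 h. One 2 h array of Mir29a, replicate 2 at 6.89, lay below the other 2.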

How the data were processed

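Total RNA of 27 samples was hybridized to mouse gene expression arrays of 1 colour, 1 sample an array and 3 arrays a group. The authors deposited log2 values per probe set, per the submitters' processing notes, which name RMA, a method that corrects background, quantile-normalizes and sums up the probes of a set. The sources used here name no version, and the log2 scale was read from the values (3.35 to 14.85). Scanner intensities and detection calls were not used, so intensity over background was not tested and the number of arrays limits the precision. Of 28853 probe sets 21789 carried 1 gene symbol, 1621 several and 5443 none, and those with 1 symbol gave 19938 genes. Of several probe sets for a gene (999 genes) the brightest by its mean over all arrays represented it. Symbols were those of the array annotation, updated through 21698 gene identifiers found in a RefSeq table. Promoter and microRNA sequences come from RefSeq tables of GRCm38.p6.

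All 27 arrays, in 9 groups with a mean each, entered a linear model in limma 3.58.1 in R 4.3.3, moderated by empirical Bayes and adjusted over all genes by the Benjamini-Hochberg method, with calls at 0.05. The steps were tested on simulated data with independent noise and far fewer changed genes than were called here. Changes of 1.5-fold, 2-fold and 4-fold were recovered in 92.5%, 98.5% and 100% of cases, and 15 of 209 calls were false. Differences of scaling or between sets of arrays were not simulated. Genes were named by rule: Cebpb, Cebpd, Cebpa, Pparg, Bmp4 and Isl1, the 20 largest rises and 20 largest falls whose arrays do not overlap, the 5 largest changes of each list with the 2 largest against its majority, and the 10 widest margins above and below both neighbouring times. Fos, Klf9, Per2, Per3, Tsc22d3, Zbtb16, Sgk1, Nr3c1, Pik3r1, Ppp1r3b and its relatives, Adipoq, Fabp4, Dlk1, Ptprc, Cdc42ep4, Cdc42ep5, Mir301, Mir100, Mir199a-1, Mir19a, Mir146b and any other gene outside that rule were chosen after their values were seen. Of 51 gene lists 1 is not reported here. The comparison, the lists and the rule were chosen with earlier results of these data known. Alternatives were other scalings, a filter at a mean of 6, the mean of probe sets, other sets of arrays, an intensity trend, a replicate block and leaving out each array of 0 h and 2 h in turn, and, for the test against both neighbouring times, of 1 h and 4 h (added after seeing the data).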

Additional observations from a re-analysis of the deposited data

How the results depend on the processing

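Without each of the 6 arrays in turn the genes called between 2 h and 0 h numbered 4935 to 5378 (5649 with all), and under the other settings 5011 to 6654. Higher genes reached 3537 when arrays were centred on the genes tested, against 2167, a setting chosen after seeing the data. The genes apart from both neighbouring times (337) moved most: median centring gave 185 (81 above, 104 below) and quantile normalization repeated gave 520 (351 below). Leaving out 1 of the 12 arrays of 0, 1, 2 and 4 h gave 217 to 408 in all, 82 to 130 above and 120 to 294 below; those of 1 and 4 h were added after seeing the data, and the lowest value of each range came without an array of 2 h. Fitting only the 6 arrays could not give this test. Same-numbered arrays of 0 h and 2 h did not deviate together (correlations of -0.094, -0.072 and -0.153), and a fit with the replicate number as a block called 5637 genes. Of the 274 named genes 12 lost their call without replicate 2 at 2 h, the most of any setting, and 0 under the block. Without that array 28 mitosis genes, 159 Zfp genes and 17 Hox genes were lower (33, 175 and 19 with all). No named gene changed direction under any setting.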

Other observations

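Signalling between cells changed in part. Of 27 growth factor genes 9 rose and 4 fell (10.9% and 17.5% of all genes did). Ereg (epiregulin), a ligand of the EGF receptor, read 8.56, 8.55 and 8.23 at 0 h and 11.91, 11.84 and 12.05 at 2 h and rose by 3.48 ± 0.101, and its relative Hbegf read 8.47, 8.46 and 8.16 at 0 h and 10.46, 10.47 and 10.80 at 2 h and rose by 2.22 ± 0.107. Vegfa rose by 1.22 ± 0.064, Bdnf by 0.81 ± 0.067 and Fgf2 by 0.77 ± 0.088, while Pdgfb fell by 0.56 ± 0.122 and Fgf10 fell by 0.37 ± 0.074. Of 22 peptide hormone and adrenergic receptor genes with their ligands 4 rose and 0 fell (18.2% and 0%), and quantile normalized again 6 and 3. Ramp3, a partner of the calcitonin-like receptor, read 7.62, 7.41 and 7.74 at 0 h and 9.90, 9.96 and 10.09 at 2 h and rose by 2.39 ± 0.111, after 0.22 at 1 h and before 3.98 at 4 h. Adm (adrenomedullin), a ligand of that receptor, rose by 1.42 ± 0.114 and was at -0.79 from 0 h at 4 h. The endothelin gene Edn1 rose by 1.58 ± 0.129. Of 33 Wnt pathway genes 3 rose and 9 fell (9.09% and 27.3%), and centred on the genes tested 7 and 7: the receptor genes Fzd7, Fzd8 and Fzd2 fell by 0.99 ± 0.086, by 0.94 ± 0.085 and by 0.88 ± 0.077, and Wnt4 rose by 1.04 ± 0.096. Of 20 Notch pathway genes 2 rose and 7 fell (10% and 35%, where 10.9% and 17.5% of all genes did). Hey1, a target of Notch, read 9.28, 9.44 and 9.52 at 0 h and 8.31, 7.95 and 8.30 at 2 h and fell by 1.23 ± 0.103, the ligand gene Jag1 fell by 0.79 ± 0.071, and Notch2 rose by 0.42 ± 0.095 while Notch1 fell by 0.39 ± 0.075.

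Matrix and sterol genes held single large changes. Of 35 matrix genes 14 rose and 2 fell (40% and 5.71%, where 10.9% and 17.5% of all genes did). Prg4 (lubricin) read 6.84, 6.75 and 6.42 at 0 h and 9.89, 9.51 and 9.77 at 2 h and rose by 3.05 ± 0.113, Ccn1 (CYR61) rose by 2.35 ± 0.078, Col4a1 by 0.95 ± 0.078 and Tnc by 0.92 ± 0.103. Of 26 contractile and actin genes 6 rose and 4 fell (23.1% and 15.4%, where 10.9% and 17.5% of all genes did), all under 2-fold. Centred on the genes tested 9 rose and 3 fell, and quantile normalized again 7 and 6. At 4 h 17 of the 26 were lower than at 2 h (14.2% of all genes were). The adaptor gene Sorbs2 fell by 0.36 ± 0.096 at 2 h and was at -4.39 at 8 h. Of 20 cholesterol synthesis genes 4 rose and 10 fell (20% and 50%, where 10.9% and 17.5% of all genes did), and under median centring 4 rose and 4 fell. Pmvk, the phosphomevalonate kinase, read 8.68, 8.67 and 8.70 at 0 h and 10.81, 10.95 and 10.88 at 2 h and rose by 2.20 ± 0.077, and Hsd17b7 rose by 1.5 ± 0.066, while Fdft1 (squalene synthase) fell by 0.61 ± 0.085 and Mvd fell by 0.51 ± 0.076. Alpl, a phosphatase of osteoblasts, rose by 0.55 ± 0.083 at 2 h and was at 2.15 at 4 h, the 1 of 10 osteoblast and chondrocyte markers past the test.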
